A study of Mus musculus with 21 samples.

Results

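Mouse embryonic stem (ES) cells grown with serum and LIF were profiled in 2 sets of RNA-seq libraries, an ES cell transcriptome set of 3 libraries and a guide-RNA control set of 3 libraries, which together make up 6 of the 21 samples of the series. The members were all libraries of the 2 sets, taken by their labels and joined gene by gene over 53796 genes. The ES set carries the genotype label Cdk1as/as, an analog-sensitive form of the mitotic kinase Cdk1 that the inhibitor 3-MB-PP1 can block, and no inhibitor was given. The text on the design of the series calls this transcriptome wild type, so label and design text conflict. The control set is labelled WT and received a control single-guide RNA, with no further treatment. Both sets are of strain V6.5, a male hybrid mouse ES line, and both were kept on inactivated mouse embryonic fibroblasts in medium with 15% serum and 100 U/ml LIF. The labels do not say whether a set is a single clone, how feeder cells were removed, or whether the 3 libraries of a set came from separate cultures, so the spread given here is that between libraries and may be technical. Genotype label, deposited table and any difference in culture or library date coincide and cannot be told apart. The libraries are bulk RNA, so fewer cells of a type and less RNA per cell cannot be told apart either. The remaining libraries of the control table, 3 Dot1l knockout (KO) libraries in LIF, served as a measure of how far sets within a table differ (Dot1l is the H3K79 methyltransferase).

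ES cells self-renew under LIF, which acts through Stat3, and a network around Pou5f1, Sox2 and Nanog holds them in the pluripotent state. In serum with LIF they form a mixed population, in which cells lean towards the naive state, towards the formative epiblast, or towards primitive endoderm. Fgf4 and ERK signalling push cells out of the naive state, and Gata4, Gata6 and Sox17 mark the step to extraembryonic endoderm, whose parietal descendants lay down a laminin and collagen IV basement membrane.

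In the ES set, 12372 genes were at 1 FPKM or more (fragments per kilobase of transcript and per unit of library size) in all 3 libraries, among them 11152 of 20811 protein-coding genes. In the mean of the 3 libraries, 7038 genes reached 10 FPKM, 935 reached 100 FPKM and 92 reached 1000 FPKM. The cytoplasmic ribosomal protein genes held 18.2% to 19.7% of the summed FPKM, and the mitochondrially encoded genes held 1.17% to 1.92%. Among protein-coding genes the highest levels were those of Rpl13a, a protein of the large ribosomal subunit (8711 ± 1933 FPKM, SD, n = 3), and of Actb, cytoplasmic actin (3918 ± 1003 FPKM, SD, n = 3). The other 13 of the top 15 protein-coding genes were 9 ribosomal protein genes, Rack1 of the small ribosomal subunit, Ftl1 of ferritin, the glycolytic enzyme Aldoa and the nucleolar Npm1. Genes listed at exactly 0 in this table, among them Eef1a1, Hsp90aa1 and Hsp90ab1, cannot appear in a ranking by level, and mt-Co1 is missing from the mitochondrial share. In the control libraries Eef1a1 was at 11343, 11290 and 11998 deposited FPKM. The 3 highest values of all were those of short RNA genes, led by Gm22133, which shares its locus with Ftl1 (47243, 65931 and 44174 FPKM). Mir6236 followed at 33504, 31025 and 32292 FPKM and Mir703 at 13284, 6116 and 14312 FPKM. FPKM divides by the length of the feature, and these values do not show mature microRNA. The mature sequences of both, from RefSeq on GRCm38.p6, are shown because the genes named for them hold the next highest values (seed, bases 2 to 8, in capitals):
mmu-miR-6236: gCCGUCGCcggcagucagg
mmu-miR-703: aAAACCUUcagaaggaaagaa
Their places are chr9:110281353-110281371 on the + strand and chr5:98475616-98475636 on the - strand, and their seeds differ.

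The ES cell identity of the set was checked on its markers within its own table. Pou5f1, the core pluripotency factor, was at 929, 897 and 961 deposited FPKM and Sox2, its partner, at 202, 207 and 188. Nanog was at 163, 172 and 163 deposited FPKM and Esrrb, an orphan nuclear receptor of the naive network, at 115, 112 and 108. Cdx2, a marker of trophoblast, was near the floor, between 0.138 and 0.196 after the rescaling described next. Markers of other lineages were not all at the floor, and those of extraembryonic endoderm, such as Gata4 and Dab2, are given further below. The ES libraries varied little among themselves after the same rescaling. The median measured gene had a standard deviation of 0.103 on the log2(FPKM + 1) scale. ES replicate 2 stood apart at mitochondrial genes, with 1.92% of summed FPKM against 1.18% and 1.17% in the other libraries.

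The 2 tables had been scaled separately, so the 6 libraries were brought to a common distribution by quantile normalization, and values below are rescaled FPKM unless they are called deposited. A gene counted as measured at a mean of at least 1 rescaled FPKM over the 6 libraries, which held for 13172 genes. It was called higher or lower where the 3 ES libraries all lay above, or all below, the 3 control libraries and the means of log2(FPKM + 1) differed by at least 1. This is a description and not a test, since tests across separately scaled tables were not made. By it 808 genes (6.13% of those measured) were higher in the ES set and 698 (5.30%) were lower. Counts of called genes in the lists below are to be read against these shares. With calls of any size, 4176 genes (31.7%) lay above without overlap and 4473 (34.0%) below, 65.7% in both directions. Within the control table the same rule gave 38 genes (0.289% of 13152) higher and 24 (0.182%) lower in Dot1l KO than in control libraries. The median size of the difference was 0.42 between ES and control cells and 0.15 between Dot1l KO and control cells, on the log2 scale. Pearson correlations across the 13172 genes, which are not independent replicates, were 0.960 to 0.963 within the ES set, 0.954 to 0.958 within the control set and 0.873 to 0.889 between the sets. The sets thus differed by more than the libraries within either of them. Scaled by the median of ratios, 57.7% of the called genes were higher against 53.7% with quantiles, and on deposited FPKM 37.5% were, with a median difference of all genes of -0.15.

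**Figure D1:**
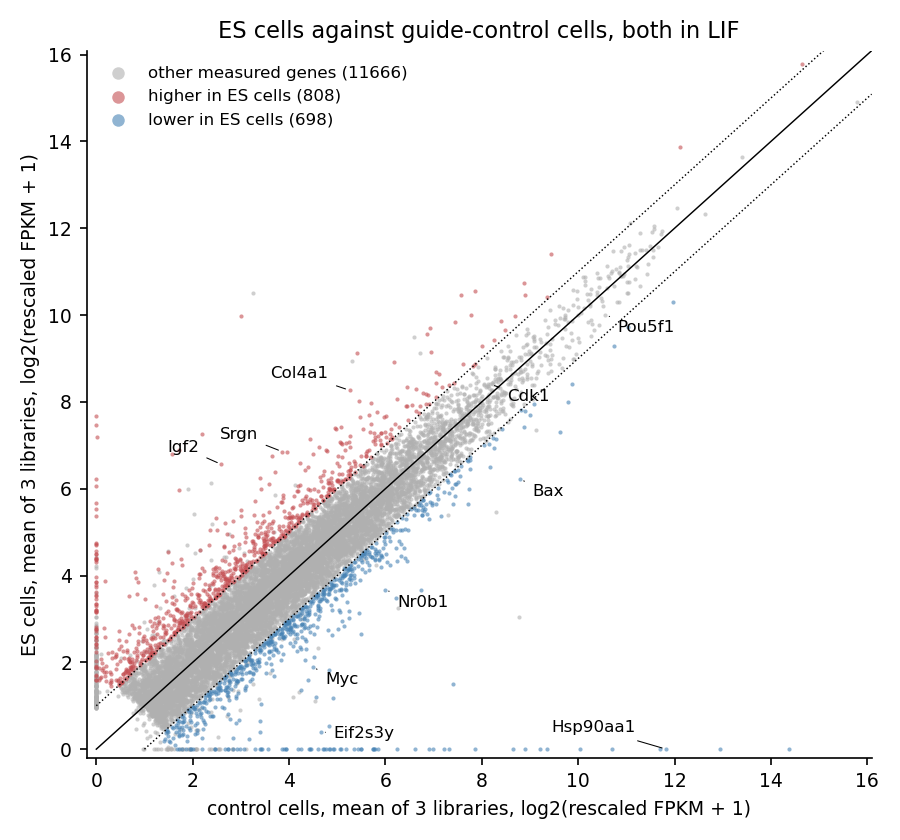
Mean log2(rescaled FPKM + 1) of the 3 ES libraries (vertical) against that of the 3 control libraries (horizontal) for 13172 measured genes. The solid line marks equal levels and the dotted lines a difference of 1; the 808 genes called higher (red) lie above and the 698 called lower (blue) below, and points on the bottom edge are listed at 0 in the ES table.

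Some calls in both directions rest on values listed at exactly 0 in a set. Of the lower calls 67 were at 0 in all ES libraries, and of the higher calls 54 were at 0 in all control libraries. Among all measured genes 101 were at 0 in the ES set and 244 in the control set. At 7 loci every listed gene was at 0 in all 3 ES libraries although genes there were at 10 FPKM or more in each control library. Among them are genes that every cell uses, such as Eef1a1, the main translation elongation factor (0 in each ES library against 11343, 11290 and 11998 deposited FPKM), Eef2 (0 against 1767, 1826 and 1994), and the chaperones Hsp90aa1 (0 against 4186, 3971 and 4130) and Hsp90ab1 (0 against 3602, 3569 and 3660). A single locus of 210 listed genes, chr8:119910359-124345724, held 38 of the 47 genes that were at 0 in every ES library and at 10 FPKM or more in every control library, among them Rpl13, Cdt1, Slc7a5, Mvd and Tubb3. These genes are listed at 0, and no fold change is given for them. Without genes listed at 0 in a set, 754 of 12827 genes (5.88%) were higher and 631 (4.92%) lower.

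Genes of extraembryonic endoderm and its basement membrane were higher in the ES set. Of 18 listed genes 15 were measured, 13 of them were called higher and none lower, and the median difference was 1.61 against -0.01 over all measured genes. Col4a1, a collagen IV chain of basement membranes, stood at 356, 277 and 294 in the ES libraries against 35.7, 38.4 and 37.5 in the control libraries, and at 54.6, 56.9 and 51.4 in the Dot1l KO libraries. Every ES library was thus above every control library, by 3.01 ± 0.11 (SE) on the log2 scale. Its head-to-head neighbour Col4a2, which shares the locus chr8:11187754-11449287, was higher by 2.86 ± 0.16 (SE). Srgn, the proteoglycan serglycin, at chr10:62493832-62527451, was at 121, 96.6 and 129 in the ES libraries against 12.8, 12.2 and 15.8 in controls. Lama1, the laminin alpha chain of the early embryonic basement membrane, was at 74.7, 52.1 and 64.6 against 9.51, 9.74 and 9.86. For both genes the lowest ES library was far above the highest control library, with differences of 3.00 ± 0.17 and 2.58 ± 0.15 (SE).

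The transcription factors of that lineage differed by less than Col4a1 and Lama1. Gata4 was at 19.6, 17.0 and 20.0 in the ES libraries against 5.81, 8.83 and 5.47 in controls (1.39 ± 0.20, SE). Sox17 was at 5.01, 4.22 and 5.20 against 1.48, 2.27 and 1.98 (1.00 ± 0.14, SE). Sox7 was at 3.78, 3.56 and 3.44 against 1.21, 1.19 and 1.11 (1.08 ± 0.04, SE). In each of the 3 genes the sets did not overlap. Gata6, which acts with Gata4, was not called: it was at 6.97, 7.27 and 7.10 against 3.92, 4.25 and 3.68, a difference of 0.71 ± 0.05 (SE). The adaptor Dab2, a marker of primitive and parietal endoderm, stood at 51.4, 52.4 and 51.6 against 10.4, 6.24 and 10.5 (2.43 ± 0.22, SE). Genes of the later visceral endoderm stayed low, with Afp between 0.238 and 0.375 and Ttr between 0.324 and 0.400 in the ES libraries and both listed at 0 in the control libraries. All 8 measured members with no other listed gene at their locus were called higher. Summed over the list, the ES libraries lay between 1274 and 1515 and the control libraries between 336 and 364.

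Simple epithelial keratins, which mark extraembryonic epithelia, were higher as well. In the trophoblast list 4 of 12 measured genes were called higher, none lower, and those 4 were the keratins. Krt19 was at 49.6, 42.2 and 43.2 in the ES libraries against 7.33, 5.00 and 9.26 in controls (2.52 ± 0.24, SE). Krt18 was at 101, 84.0 and 104 against 16.6, 19.4 and 17.3 (2.37 ± 0.12, SE), and its partner Krt8 differed by 1.78 ± 0.16 (SE). The Dot1l KO libraries lay between controls and ES cells for Krt18, at 29.7, 30.5 and 31.6. Regulators of trophoblast did not follow the keratins: Cdx2 and Elf5 were below the level at which a gene counted as measured, and Gata3 overlapped between the sets (1.42, 1.27 and 1.75 against 0.177, 0.200 and 1.53).

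**Figure D2:**
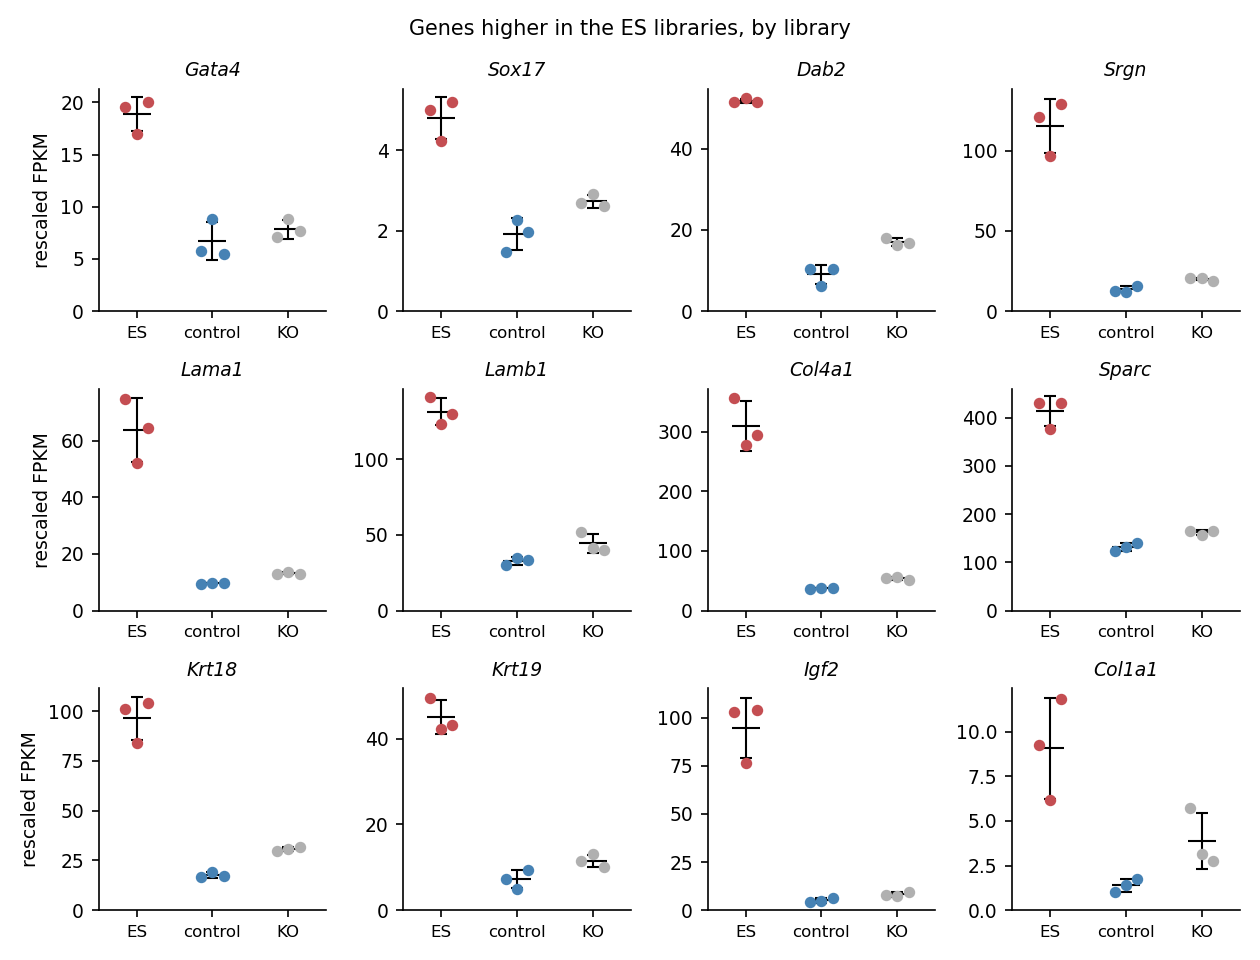
Rescaled FPKM (vertical axis, linear, from 0) of 12 genes in each of the 3 ES, 3 control and 3 Dot1l KO libraries. Points are libraries and bars the mean ± SD; in every panel the ES libraries lie above the control libraries, as for Srgn at 96.6 to 129 against 12.2 to 15.8.

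Some fibroblast and feeder genes were higher as well. Of 24 listed genes 15 were measured, 6 were called higher and none lower, while 7 overlapped between the sets. The median difference was 0.84, which was 0.54 on deposited FPKM and 0.32 over the 8 genes with no other listed gene at their locus, of which 3 were called. The summed level was 672 to 810 in the ES libraries and 386 to 423 in the control libraries. It includes Fn1 (fibronectin) at 337, 316 and 300 against 162, 177 and 170, which was not called. Col1a1, the main collagen of fibroblasts, was at 9.26, 6.16 and 11.8 against 1.02, 1.40 and 1.75 (2.05 ± 0.28, SE). Lox, a collagen cross-linking enzyme, was at 5.18, 3.21 and 5.89 against 1.07, 0.826 and 0.961 (1.53 ± 0.22, SE). Tagln and Acta2, contractile proteins that are made by many cell types in culture, were higher by 2.72 ± 0.23 and 2.26 ± 0.16 (SE). Other defining markers stayed at the floor in both sets, with Lum listed at 0 in all 6 libraries and Dcn at 0.0174, 0.207 and 0.174 against 0 in each control library. Thy1 overlapped between the sets, at 9.32, 12.4 and 10.2 against 12.3, 16.3 and 19.5. Fibroblasts also make Col4a1, Col4a2, Lamb1, Lamc1 and Sparc of the endoderm list, and the part of feeder cells in the differences was not tested.

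Targets of p53, the DNA damage response factor, were higher in part. Of 20 measured members 7 were called higher and 1 lower, with a median of 0.75. On deposited FPKM the median was 0.47, with 7 called higher and 2 lower. Perp, a p53-induced membrane protein, was at 42.4, 39.5 and 41.8 in the ES libraries against 9.29, 8.77 and 8.08 in controls (2.12 ± 0.06, SE). Trp53inp1, a nuclear partner of p53, was at 121, 106 and 120 against 30.5, 25.7 and 23.9 (2.08 ± 0.12, SE). Ccng1, cyclin G1, was at 154, 142 and 146 against 38.8, 36.9 and 36.3 (1.95 ± 0.04, SE). In these 3 genes every ES library was above every control library, and Perp stood at 8.11, 8.37 and 8.31 in the Dot1l KO libraries. Pmaip1 (Noxa), Plk2, Fas and Eda2r were the other 4 called higher. Bax, the pro-apoptotic pore protein, went the other way at 72.0, 74.6 and 73.7 against 468, 423 and 436, a difference of -2.57 ± 0.05 (SE), at a locus that it shares with other listed genes. Just under the rule for a call were Mdm2, which degrades p53 (0.96 ± 0.09, SE), and Cdkn1a, the p21 inhibitor of cyclin-dependent kinases (0.92 ± 0.05, SE), in both of which the sets did not overlap. Trp53 itself lay below, at 152, 145 and 146 against 265, 290 and 280. A p53 response element was searched as 2 half-sites with a short gap allowed between them. Of 16 list members with a RefSeq promoter entry, only Cdkn1a held a match in the 250 bases before a start. Among 9480 measured genes with an entry 0.0738% did. Its downstream start held no match. The stretch before its upstream start, chr17:29090729-29090978 on the + strand (GRCm38.p6), is shown with both half-sites and the gap between them in capitals:
Cdkn1a: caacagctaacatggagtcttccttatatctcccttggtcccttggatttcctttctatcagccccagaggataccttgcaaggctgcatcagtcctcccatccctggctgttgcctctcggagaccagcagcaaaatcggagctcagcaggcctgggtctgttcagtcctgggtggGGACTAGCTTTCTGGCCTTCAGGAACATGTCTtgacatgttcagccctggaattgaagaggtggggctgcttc

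Several genes induced by low oxygen were higher in the ES set. Of 27 measured genes of glycolysis and hypoxia 7 were called higher and none lower, with a median of 0.53; under median-of-ratios scaling 5 were called higher and the median was 0.30, and on deposited FPKM 5 were and it was 0.15. P4ha1, a collagen prolyl hydroxylase subunit, was at 174, 149 and 172 in the ES libraries against 31.3, 31.2 and 28.7 in controls (2.40 ± 0.08, SE). P4ha2, its paralog, was at 47.7, 41.5 and 52.8 against 12.3, 12.9 and 12.3 (1.83 ± 0.10, SE). Ndrg1 and the oxidoreductase Ero1l were higher by 1.73 ± 0.15 and 1.68 ± 0.12 (SE). Ddit4, an mTORC1 inhibitor induced by low oxygen and by stress and no member of the list, was at 276, 220 and 279 against 42.1, 41.6 and 45.5 (2.55 ± 0.12, SE). Among the glycolytic enzymes Pgk1 was called, at 372, 294 and 374 against 178, 169 and 164. Ldha (-0.00 ± 0.02, SE) and Pkm (0.11 ± 0.07, SE) overlapped between the sets, and the targets Pdk1 and Slc2a1 lay below at -0.45 ± 0.08 and -0.14 ± 0.04 (SE). Of the 27 genes 18 lay above without overlap and 3 below, against 31.7% and 34.0% of all measured genes.

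The hypoxia-inducible factors bind ACGTG and GCGTG, and both strands of the 250 bases before the start were searched for these letters. The stretches of 4 of the genes are shown, from RefSeq on GRCm38.p6 and read 5′ to 3′ along the gene, with the matches in capitals (CACGT and CACGC are the same motifs on the other strand):
P4ha1: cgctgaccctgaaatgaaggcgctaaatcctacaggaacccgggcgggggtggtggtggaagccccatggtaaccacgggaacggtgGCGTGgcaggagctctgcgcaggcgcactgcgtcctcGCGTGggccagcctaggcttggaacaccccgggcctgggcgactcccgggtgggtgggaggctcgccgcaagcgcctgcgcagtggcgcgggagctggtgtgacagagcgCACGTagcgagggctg
P4ha2: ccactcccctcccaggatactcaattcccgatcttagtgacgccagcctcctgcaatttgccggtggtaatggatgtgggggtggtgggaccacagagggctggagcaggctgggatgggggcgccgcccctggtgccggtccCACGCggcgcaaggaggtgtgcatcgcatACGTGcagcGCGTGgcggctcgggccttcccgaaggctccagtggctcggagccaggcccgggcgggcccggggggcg
Pgk1: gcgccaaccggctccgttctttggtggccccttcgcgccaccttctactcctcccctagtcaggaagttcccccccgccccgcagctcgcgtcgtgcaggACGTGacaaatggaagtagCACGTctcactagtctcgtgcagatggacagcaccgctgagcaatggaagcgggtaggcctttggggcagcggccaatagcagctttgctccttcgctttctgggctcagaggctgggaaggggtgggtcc
Ddit4: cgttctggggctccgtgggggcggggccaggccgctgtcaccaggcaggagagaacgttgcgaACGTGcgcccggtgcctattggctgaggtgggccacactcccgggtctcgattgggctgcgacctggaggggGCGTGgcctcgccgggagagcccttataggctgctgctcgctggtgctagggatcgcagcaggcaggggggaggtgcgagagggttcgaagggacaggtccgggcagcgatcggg
They lie at chr10:59323046-59323295 (+ strand), chr11:54100674-54100923 (+), chrX:106186850-106187099 (+) and chr10:59951771-59952020 (-), and hold 3, 3, 2 and 2 matches. All 6 called members with an entry held at least 1 match, and so did 17 of the 19 measured members with an entry that were not called. Over all 9480 measured genes with an entry the share was 62.9%, and over all 27025 genes with an entry 41.5%.

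**Figure D3:**
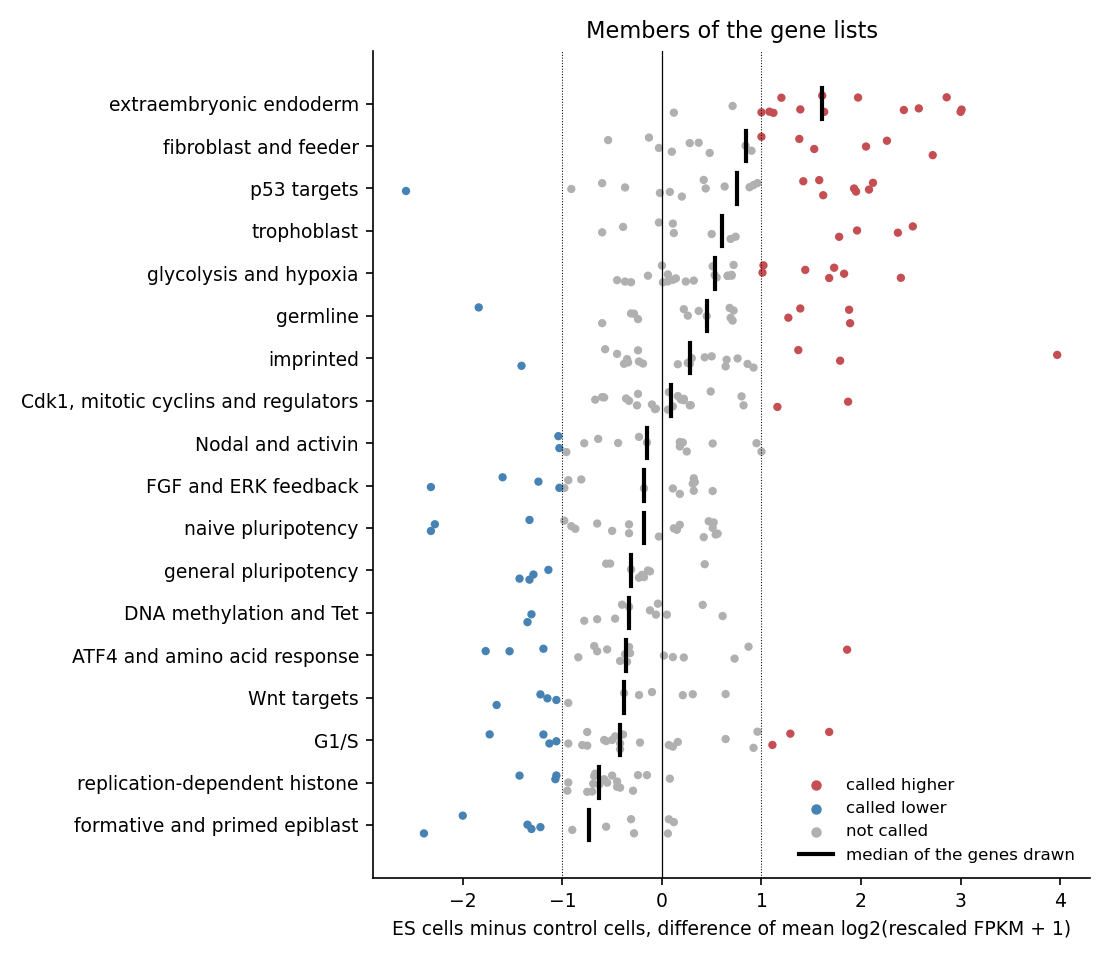
Difference between ES and control cells in mean log2(rescaled FPKM + 1) for the measured members of 18 gene lists, genes listed at 0 left out. Points are genes, red and blue where called higher or lower, and black bars are medians, which run from -0.73 for formative epiblast genes to 1.61 for extraembryonic endoderm genes.

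Pluripotency genes lay on both sides of the control levels. In the naive list 10 of 20 measured genes lay below without overlap and 7 above, and in the general pluripotency list 10 of 13 lay below and 1 above. Over all measured genes 34.0% lay below and 31.7% above, so the naive genes above were near the share of all genes. None of the naive genes was called higher and 3 were called lower, with a median of -0.18. Under median-of-ratios scaling 5 were lower, and on deposited FPKM 6 were, with a median of -0.42. Nanog lay above at 199, 197 and 202 against 141, 134 and 130 (0.56 ± 0.04, SE), and Esrrb lay below at 138, 126 and 130 against 183, 184 and 192 (-0.50 ± 0.04, SE). Nr0b1, the nuclear receptor Dax1, was lower at 11.3, 11.6 and 12.3 against 61.4, 61.6 and 64.2 (-2.32 ± 0.04, SE). Gbx2, a homeobox target of Stat3, was lower at 5.16, 5.58 and 4.74 against 29.1, 27.4 and 30.1 (-2.28 ± 0.07, SE). The Dot1l KO libraries were also below their controls in both genes, with Nr0b1 at 38.0, 35.5 and 35.3 and Gbx2 at 17.8, 15.4 and 18.9, so part of the way to the ES set. Both differences use the same control libraries, which tends to make them agree in direction. Not every lower gene did so: the noncoding RNA Platr5 differed by -2.31 in the ES set and by 0.96 in the KO libraries. Klf2, a naive factor, was lower at 124, 116 and 123 against 297, 314 and 307 (-1.33 ± 0.04, SE), and Klf4 and Zfp42 (Rex1) lay below without a call, with differences of -0.98 and -0.87. Fgf4 (0.51), Prdm14 (0.52), Spp1 (0.54), Tfcp2l1 (0.47), Stat3 (0.42) and Tbx3 (0.18) lay above, also without a call. Dppa3, Klf5 and Nr5a2 overlapped between the sets, while Dppa2 (-0.91), Dppa4 (-0.65), Tcl1 (-0.33) and Zfp57 (-0.33) lay below.

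Among general pluripotency genes 4 of 13 were called lower and none higher, with a median of -0.31 that was -0.49 under median-of-ratios scaling and -0.67 on deposited FPKM. Eras, L1td1 and Utf1 were among them, with differences of -1.33, -1.29 and -1.14. Pou5f1 was at 1026, 952 and 1091 against 1539, 1529 and 1466 (-0.56 ± 0.06, SE), and Sox2 at 255, 250 and 232 against 180, 183 and 183 (0.43 ± 0.04, SE). The sets did not overlap in either gene, neither reached the size for a call, and Sox2 was the member of the list that lay above. Of 14 LIF and Stat3 genes 13 were measured and 1, Gbx2, was called lower (5.30% over all measured genes). Under either other scaling 2 were lower. Socs3, the feedback inhibitor of LIF signalling, lay above by 0.72 ± 0.09 (SE).

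Formative epiblast genes were lower in part. Of 12 measured genes 5 were called lower and none higher, with a median of -0.73. Among the 4 with no other listed gene at their locus 1 was called and the median was -0.42, and with a stricter filter on level, 5 FPKM in the mean, the median of the list was -1.22. Foxd3, a forkhead factor of the exit from the naive state, was at 1.05, 1.08 and 1.01 against 9.37, 10.5 and 9.44 (-2.39 ± 0.05, SE). Tcf15, a bHLH factor that primes cells for differentiation, was at 19.5, 22.1 and 19.5 against 84.1, 81.5 and 87.4 (-2.00 ± 0.06, SE). The de novo DNA methyltransferases Dnmt3a, at 67.6, 71.9 and 65.2 against 161, 190 and 175, and Dnmt3b, at 23.4, 21.2 and 21.7 against 55.4, 56.5 and 56.7, were lower by differences of -1.35 and -1.31. In all 4 genes each ES library was below each control library. Otx2, a central formative factor, overlapped between the sets (0.07 ± 0.03, SE), and Fgf5, of the primed epiblast, was too low to count as measured.

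Some readouts of FGF and ERK signalling were lower, while no ligand or receptor named here was called. Of 15 measured genes 4 were called lower and none higher, with a median of -0.18. Under median-of-ratios scaling 6 were lower and the median was -0.07, on deposited FPKM 7 were lower, and over the 10 genes with no other listed gene at their locus 3 were lower and the median was -0.88. Spry4, a feedback inhibitor, was at 8.03, 7.71 and 7.58 against 44.5, 41.8 and 42.0 (-2.32 ± 0.04, SE). Etv4, an ETS factor induced by ERK, was at 35.6, 43.4 and 36.5 against 111, 113 and 132 (-1.60 ± 0.12, SE). Egr1 and Etv5 were lower by differences of -1.24 and -1.03. The ligand Fgf4 lay above, at 87.0, 72.4 and 88.9 against 56.3, 61.6 and 54.8. Of the receptors Fgfr1 (0.18) and Fgfr4 (0.32) overlapped and Fgfr2 (0.32) and Fgfr3 (0.31) lay above. Of 11 measured Wnt targets 4 were called lower and none higher (median -0.38), led by Notum, a Wnt deacylase (-1.66 ± 0.20, SE). Of 15 Nodal and activin genes Nodal and its antagonist Lefty1 were called lower (-1.03 and -1.04), where 5.30% of all measured genes were. Other scalings called 2 Nodal and activin genes higher and 2 lower (median of ratios) or 1 higher and 3 lower (deposited FPKM), and over the 3 Wnt targets with no other listed gene at their locus the median was -0.94.

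Myc was among the genes with the largest negative differences. This growth regulator, at chr15:61985390-61990374, was at 2.69, 2.94 and 2.46 in the ES libraries against 21.6, 21.5 and 21.2 in controls and 17.3, 14.6 and 17.5 in Dot1l KO libraries (-2.60 ± 0.05, SE). Of 26 measured G1/S genes 5 were called lower and 3 higher (5.30% and 6.13% over all measured genes), with a median of -0.45. The balance depended on the scaling, with 4 lower and 4 higher under the median of ratios, and 7 lower, 4 higher and a median of -0.81 on deposited FPKM. Ccne1, cyclin E1, which drives entry into S phase, was at 58.6, 69.0 and 62.4 against 216, 214 and 205 (-1.73 ± 0.07, SE). E2f1, E2f3 and Ccnd1 were lower by differences of -1.19, -1.13 and -1.06, and Cdt1 was listed at 0. The 3 called higher were Rb1, Cdkn1b and Rbl2, which restrain this step. Rb1 was higher by 1.68 ± 0.10 (SE), and Cdkn1b, the p27 inhibitor of cyclin-dependent kinases, was at 48.4, 49.6 and 51.8 against 19.7, 21.1 and 18.6 (1.29 ± 0.06, SE). In these genes, too, the sets did not overlap.

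**Figure D4:**
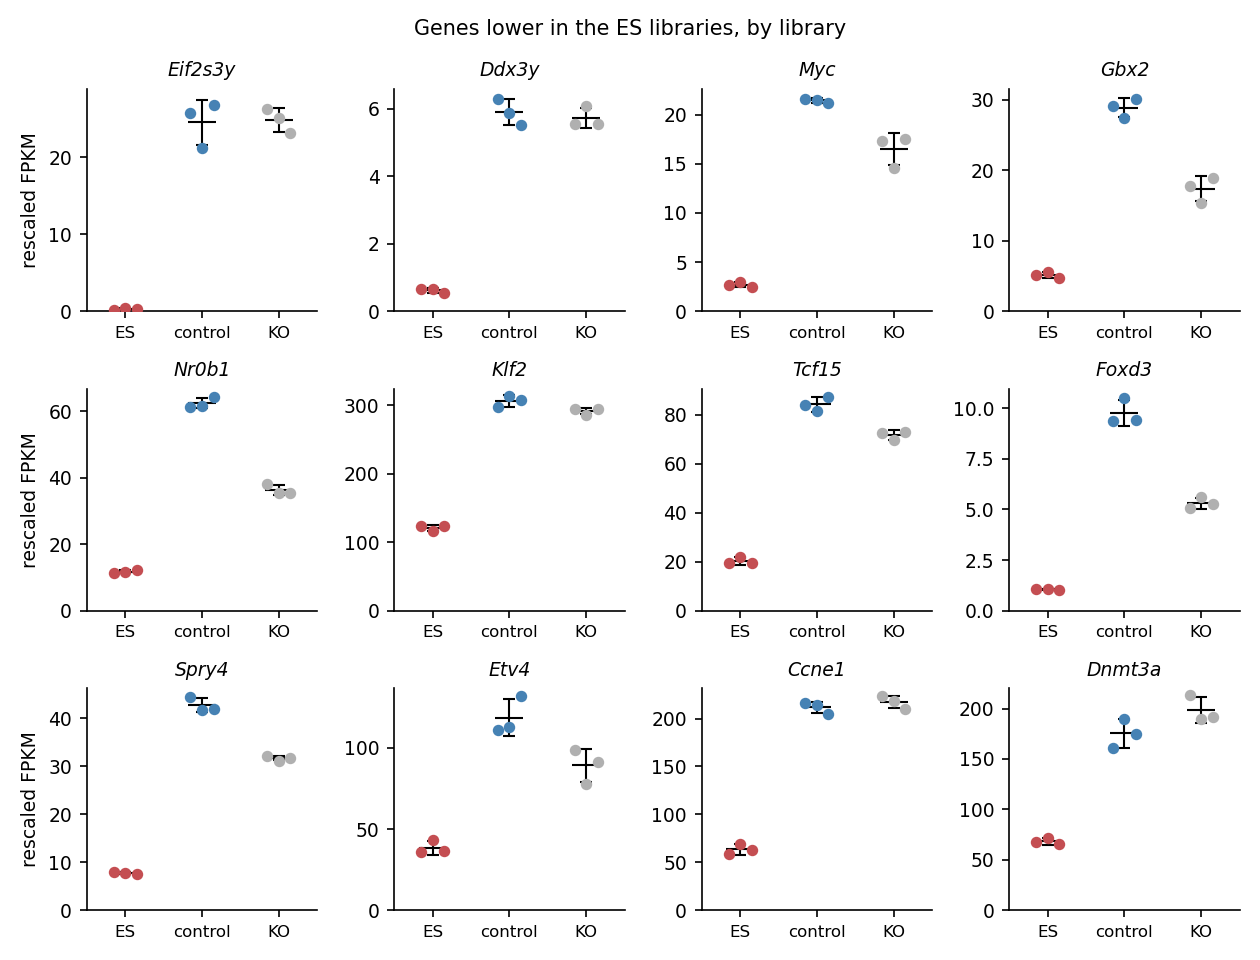
Rescaled FPKM (vertical axis, linear, from 0) of 12 genes in each of the 3 ES, 3 control and 3 Dot1l KO libraries. Points are libraries and bars the mean ± SD; in every panel the ES libraries lie below the control libraries, as for Myc at 2.46 to 2.94 against 21.2 to 21.6.

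Cdk1, whose allele the genotype label names, was at 364, 279 and 379 rescaled FPKM in the ES libraries against 280, 323 and 267 in controls (292, 233 and 305 against 327, 373 and 328 deposited FPKM). The sets overlapped in rescaled values, and the sign of the difference depended on the scaling: 0.22 ± 0.16 (SE) with quantiles, -0.13 with the median of ratios and -0.31 on deposited FPKM. A gene-level RNA value does not show the analog-sensitive change, so this does not check the label. Of 24 measured genes of Cdk1, mitotic cyclins and regulators 2 were called higher and none lower, a share near the 6.13% called higher over all measured genes. The median was 0.09 and became -0.15 under median-of-ratios scaling and -0.34 on deposited FPKM. Bub1, a kinase of the spindle checkpoint, was at 125, 154 and 118 against 37.1, 34.5 and 33.8 (1.87 ± 0.12, SE), and Mastl, which restrains the phosphatase that opposes Cdk1, was higher by 1.16 ± 0.10 (SE). Ccna2 (0.80) and Kif11 (0.82) lay above without a call, and Ccnb1 (0.22), Cdc20 (0.06) and Aurkb (-0.10) overlapped. Dot1l was at 15.2, 14.3 and 13.6 against 20.4, 19.4 and 22.4 in controls and 11.3, 9.05 and 11.0 in the KO libraries (-0.50 ± 0.07, SE for ES against control), and none of the 15 genes of Dot1l and its elongation partners was called.

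Y-linked transcripts were nearly missing from the ES set. Eif2s3y, a subunit of a translation initiation factor encoded at chrY:1010542-1028847, was at 0.212, 0.441 and 0.297 in the ES libraries against 25.7, 21.2 and 26.7 in controls and 26.2, 25.0 and 23.1 in Dot1l KO libraries (-4.27 ± 0.12, SE). Ddx3y, an RNA helicase, was at 0.671, 0.652 and 0.528 against 6.29, 5.86 and 5.52 (-2.09 ± 0.06, SE). Uty, a histone demethylase paralog too low to count as measured, was at 0.0218, 0.0871 and 0.0197 against 1.33, 1.87 and 1.59. In all 3 genes every ES library was far below every control library. Of the other 6 listed members Uba1y was at 0.0376, 0.0574 and 0.0437 against 0.408, 0.229 and 0.398, and Kdm5d, Usp9y, Zfy1, Zfy2 and Sry were near or at 0 in both sets. Xist, which silences an X chromosome in female cells, was between 0.0186 and 0.110 in the ES set and between 0.0333 and 0.0676 in the control set. The median over the X chromosome was 0.09, within the range of the autosomes (-0.13 to 0.14), while the medians of the Y (3 genes) and of the mitochondrial genome were -2.09 and 2.70. The strain label names a male line. The cause of the low Y-linked values was not tested, nor were the identity and karyotype of the ES line. Eif2s3y and Ddx3y have close X-linked paralogs, Eif2s3x and Ddx3x, and the counting of shared reads is not stated. The 250 bases before the starts of Eif2s3y (chrY:1010345-1010594, +) and Ddx3y (chrY:1286614-1286863, -), from RefSeq on GRCm38.p6, are shown because both genes were lower together, with CG dinucleotides in capitals:
Eif2s3y: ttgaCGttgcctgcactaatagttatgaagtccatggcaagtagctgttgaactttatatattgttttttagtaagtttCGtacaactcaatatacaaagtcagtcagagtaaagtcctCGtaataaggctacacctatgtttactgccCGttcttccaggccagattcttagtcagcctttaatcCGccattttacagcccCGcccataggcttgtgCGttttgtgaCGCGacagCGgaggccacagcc
Ddx3y: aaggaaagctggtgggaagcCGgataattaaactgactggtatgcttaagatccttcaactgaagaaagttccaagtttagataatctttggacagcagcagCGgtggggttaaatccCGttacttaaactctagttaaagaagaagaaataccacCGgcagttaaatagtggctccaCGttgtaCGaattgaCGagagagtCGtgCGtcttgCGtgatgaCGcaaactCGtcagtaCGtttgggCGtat
They hold 10 and 14 CG dinucleotides, and neither holds TATAAA, which 4.56% of measured genes with an entry do.

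Mitochondrially encoded transcripts were higher in the ES set. Of 7 measured protein-coding members 6 were called higher, and mt-Co1 was listed at 0 in the ES table. mt-Nd5, of respiratory complex I, was at 641, 1042 and 662 in the ES libraries against 117, 124 and 106 in controls (2.71 ± 0.24, SE). The ribosomal RNA mt-Rnr2 was at 811, 910 and 798 against 135, 122 and 108 (2.78 ± 0.11, SE). ES replicate 2 was the highest library in both, and the other ES libraries also lay above all controls. Over the 9 measured mitochondrial genes not at 0 the median was 2.71, against 0.63 between Dot1l KO and control libraries. The nuclear-encoded ribosomal proteins differed little, with a median of 0.23 over 20 genes that became -0.10 on deposited FPKM.

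Among imprinted genes Igf2 stood apart. This fetal growth factor, expressed from the paternal allele, was at 103, 76.4 and 104 in the ES libraries against 4.06, 4.87 and 6.34 in controls and 7.83, 7.34 and 9.68 in KO libraries (3.97 ± 0.21, SE), at a locus with other listed genes. Its neighbour H19, expressed from the maternal allele, overlapped between the sets at 8.00, 7.84 and 6.95 against 7.28, 6.65 and 4.61. Of 23 measured imprinted genes Igf2, Sgce and Peg10 were called higher and Phlda2 lower, with a median of 0.28 that became -0.04 on deposited FPKM. Over all measured genes 6.13% were called higher and 5.30% lower, so the lower call is near the share of all genes. Sgce and Peg10, neighbours on chromosome 6 and both paternally expressed, were higher by 1.79 ± 0.13 and 1.37 ± 0.06 (SE), and Peg10, at 0.98 on deposited FPKM, lost its call there. Phlda2, a maternally expressed growth restrictor of the Igf2 region, was at 56.8, 60.4 and 60.5 against 153, 161 and 163 (-1.41 ± 0.04, SE). Transcripts of the Dlk1 and Meg3 domain did not move together: Meg3 (0.30) and Dlk1 (-0.34) overlapped between the sets, Rian lay above (0.43) and Mirg below (-0.35).

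Of 17 measured germline genes 4 were called higher and 1 lower, against 6.13% and 5.30% of all measured genes. The median of the list, 0.45, became -0.01 with a filter of 5 FPKM in the mean. Sycp3, a protein of the meiotic chromosome axis, was at 34.6, 37.6 and 37.6 against 8.53, 11.2 and 7.93 (1.89 ± 0.14, SE), and Hormad1, another axis protein, differed by 1.88 ± 0.11 (SE). Tex19.1, expressed in germ cells and ES cells, was lower at 17.8, 17.0 and 19.3 against 69.0, 65.3 and 66.8 (-1.84 ± 0.06, SE). Most genes of the rare 2-cell-like state were low, and of 16 listed only 3 counted as measured. Of those, 2 were called higher (6.13% over all measured genes) and 1 overlapped between the sets. The list summed to 65.4 to 70.4 in the ES libraries and 55.7 to 63.1 in the control libraries. The low genes given next hold only a small part of these sums. Zfp352 was at 2.10, 2.14 and 1.86 against 0.0369, 0 and 0.103, and Usp17le at 2.34, 2.63 and 2.04 against 0.229, 0.303 and 0.154, the Usp17le level in the KO libraries being 3.10, 2.23 and 2.65. Zscan4d, which marks that state, was at 1.24, 1.42 and 1.67 against 0.0435, 0.0918 and 0. These genes belong to families of near-identical copies, and their values are uncertain for that reason.

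Other single genes with large differences included Clk1, a kinase of splicing factors, at 107, 114 and 123 against 14.7, 14.0 and 15.0 (2.89 ± 0.06, SE), and Rsrp1 at 164, 150 and 193 against 31.2, 28.4 and 31.0 (2.44 ± 0.11, SE). Serpine2, a secreted protease inhibitor, was at 68.1, 66.1 and 71.3 against 13.4, 8.69 and 11.4 (2.53 ± 0.17, SE). On the lower side stood Srxn1, which repairs oxidised peroxiredoxins, at 6.03, 6.95 and 7.39 against 31.2, 34.2 and 34.0 (-2.14 ± 0.09, SE), and Cbr3, a carbonyl reductase, at 8.44, 7.20 and 8.80 against 38.8, 37.1 and 35.1 (-2.06 ± 0.09, SE). Of 14 measured nuclear noncoding RNAs 4 were called higher (6.13% over all measured genes) and none lower: Malat1 (2.29 ± 0.27, SE), Snhg1, Snhg12 and Gas5. These calls depended on the scaling: Gas5 was at 0.86 under the median of ratios, and on deposited FPKM Snhg1 was at 0.91, Snhg12 at 0.87 and Gas5 at 0.67, which left 1 higher and 1 lower gene in the list. Of 19 genes of the ATF4 and amino acid response 4 were called lower and 1 higher (5.30% and 6.13% over all measured genes). Of the 4, Slc7a5 is listed at 0 in the ES table. Of 21 measured replication-dependent histone genes 3 were called lower and none higher. Under either other scaling 1 was lower, near the 5.30% of all measured genes. With the trend over span described next taken out, Hist1h3e (-0.87) and Hist1h3b (-0.98) no longer reached a difference of 1.

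The differences went with the span of the gene in the genome. Among 5924 measured genes that overlap no other listed gene and are not at 0 in a set, ordered into 10 bins, the bin with the shortest span (up to 2.52 kb) had a median difference of -0.30, with 9.95% of its genes called lower and 6.24% higher. The bin with the longest span (67.3 kb and more) had a median of 0.18, with 1.01% called lower and 7.93% higher. All 3 ES libraries showed this trend, between -0.31 and -0.23 in the shortest bin and between 0.13 and 0.23 in the longest. The control libraries stayed within 0.01 of their mean there. Each of them is part of that mean, which holds their values near 0, so they are no independent yardstick. Across 10 bins of expression level the medians stayed between -0.12 and -0.02. Quantile normalization had largely removed any shift with level beforehand, so these bins cannot show whether level plays a part. With the trend over level and span taken out, Myc stood at -2.34, Nr0b1 at -2.05, Tcf15 at -1.75 and Klf2 at -1.03, and Utf1 (-0.90), Egr1 (-0.98), Nodal (-0.82), Lefty1 (-0.75) and Sp5 (-0.91) no longer reached a difference of 1. The medians of the endoderm and p53 lists were then 1.63 and 0.88, and that of formative genes -0.73. Those of the FGF and ERK, the Nodal and activin and the naive lists shrank to -0.01, -0.03 and -0.11. The median of LIF and Stat3 genes changed sign, from -0.01 to 0.26.

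**Figure D5:**
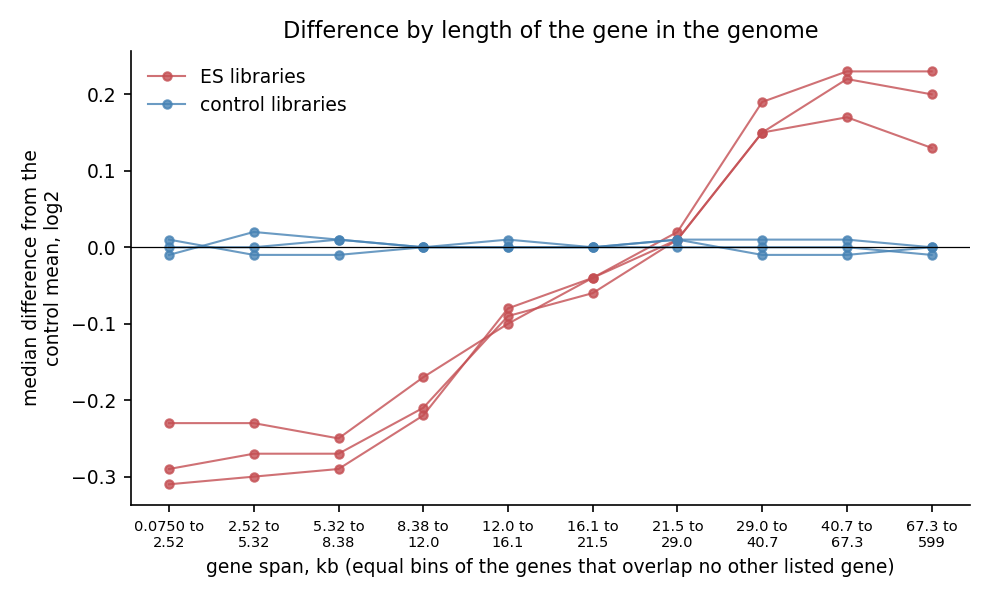
Median difference of each library from the mean of the control libraries (vertical, log2 scale) over 10 bins of gene span in kb (horizontal), for 5924 genes. The 3 ES libraries (red) run from about -0.3 in the shortest bin to about 0.2 in the longest. The 3 control libraries (blue) stay near 0, each being part of the mean it is compared with.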

How the data were processed

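Gene expression was measured by RNA-seq in 3 ES cell libraries and, in another table, in 3 control and 3 Dot1l KO libraries, all in LIF. The deposited values are FPKM per gene, made by the authors. The submitters' processing notes name STAR 2.5.4a, Cufflinks 2.2.1 and Cuffdiff, and the builds mm9 and GRCm38, with no roles. The scaling and the RNA library kit are not stated in the sources used here. Depth per library is unknown, so no counting interval is given; summed FPKM was 666191 to 707882 in the ES libraries and 840269 to 895128 in the controls. Tables were joined by gene ID. Coordinates are the deposited ones, and 99.8% of 37051 genes overlap their RefSeq GRCm38.p6 locus. Values were quantile-normalized over the 6 libraries and compared as log2(FPKM + 1), so fold changes of low genes are understated; KO libraries were placed on the same distribution by rank. Because the tables were scaled separately, no p-value was computed. A rule set which genes could be named, and only part of them are described. They were Cdk1 and Dot1l, the 15 genes with the highest ES levels and the 5 most variable ES genes, which are not described. Added to these were the 15 called genes in each direction with the largest differences. Those had a mean of at least 5 rescaled FPKM in the higher set, no clone, predicted or small RNA name and no overlapping gene. From the lists came up to 4 called members of each, members at 0 and any member of the naive, imprinted, fibroblast, Y-linked and Cdk1 lists. Further members were chosen after their values were seen. The members and lists were chosen with earlier results of these data known. Alternatives changed the scaling, the pseudocount, the filters, the genes admitted and the libraries. Python 3.11.15, pandas 2.3.3, numpy 2.4.6 and matplotlib 3.10.9 were used.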

Additional observations from a re-analysis of the deposited data

How the results depend on the processing

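The count of genes higher in the ES set was 808 and that of genes lower 698. With percentile ranks they were 1685 and 1778, and without genes that overlap another listed gene 339 and 309, where fewer genes were admitted. On deposited FPKM 667 genes were higher and 1113 lower, and with a pseudocount of 0.1 the counts were 1097 and 1069. The cause was not tested. Leaving out each library in turn gave 795 to 902 higher and 679 to 737 lower genes. Of the called genes 53.7% were higher, against 37.5% on deposited FPKM. The difference in Cdk1 changed sign to -0.13 with the median of ratios and -0.31 on deposited FPKM, and the median of the short structural RNA list changed from -0.69 to 0.07 without overlapping genes. No paired analysis was possible because no test was made across the tables and the labels give no pairing between them. FPKM without counts leaves the precision of low genes unknown.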
